A study of Mus musculus with 44 samples.

Results

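Genes that mark B cells were followed in antigen-presenting cells sorted from lymph nodes. The 7 genes, *Cd79a*, *Cd79b*, *Ms4a1*, *Pax5*, *Ebf1*, *Blk* and *Cd22*, were taken by symbol from an expression table of 14699 genes, and all 7 were found in it. RNA-seq was performed on CD45+CD11c+MHCIIhigh cells, a gate for dendritic cells (DCs), from draining lymph nodes collected 24 h after subcutaneous engraftment of B16-F10-OVA cells, a mouse melanoma line that expresses ovalbumin, or after injection of PBS (sham). Cells were collected at zeitgeber time (ZT, hours after lights on) 3, 9, 15 and 21. Each timepoint had 5 libraries labelled WT (engrafted control mice, 20 in all), 3 KO (12 in all) and 3 PBS (sham, 12 in all). This gives 44 libraries of 1 mouse each. That those labelled WT and KO received tumour cells, and that the sham mice were WT, is taken from the study. According to the methods, mice were females of 8 to 12 weeks. The KO mice carried *Clec9a-cre* with *Bmal1 flox/flox* (*Bmal1ΔcDC*), in which Cre is driven from the *Clec9a* locus in conventional DCs and their precursors. Whether the control mice carried the floxed allele is not stated in the sources used here.

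B cells recognize antigen through a surface immunoglobulin that signals by way of the CD79A and CD79B chains, and Src-family kinases such as BLK pass that signal on. CD22 dampens it, CD20 (encoded by *Ms4a1*) is a membrane protein of mature B cells, and the transcription factors EBF1 and PAX5 establish and maintain B cell identity. Lymph nodes are rich in B cells, which carry MHC class II themselves, and DCs lie next to them. *Blk* is also transcribed in plasmacytoid DCs and in some T cells.

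Values are counts per 1000000 reads on the listed genes (CPM). Libraries held 20088013 to 28962673 reads on genes in engrafted control mice, 29406729 to 55799162 in those labelled KO and 28003328 to 49590056 in sham-injected mice, so that every library labelled KO was deeper than every engrafted control library. *Arntl*, which encodes BMAL1, averaged 19.9 CPM (SD 6.91, n = 12) over the libraries labelled KO and 14.8 CPM (SD 3.65, n = 20) over engrafted control mice. Because it was not lower there, these libraries are named by their label (labelled *Bmal1ΔcDC*). CPM over a whole gene does not show whether part of that gene was lost, so the deletion itself was not tested. The sorted DC markers, 12 genes that include *Cd74* and *Ccr7*, added up to 24644 to 36538 CPM, against 30.7 to 137 CPM for the 7 B cell genes. No immunoglobulin chain was analysed here. In bulk RNA, a smaller number of B cells cannot be told apart from less RNA per B cell, nor either of them from transcripts of the sorted DCs themselves.

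The levels of the B cell genes differed widely between members. By mean CPM, *Cd79a*, *Cd79b* and *Blk* stood at the 56.6, 54.7 and 50.4 percentile of all genes in the table, *Ms4a1* and *Cd22* at 43.6 and 38.8, and *Ebf1* and *Pax5* at 25.8 and 9.78. Scaled to the summed length of their exons, *Cd79a* and *Cd79b* had the highest levels (13.2 and 12.2 CPM per kb on average over 44 libraries), followed by *Blk* (4.96 CPM per kb), *Ms4a1* (1.35 CPM per kb), *Cd22* (1.09 CPM per kb), *Ebf1* (0.118 CPM per kb) and *Pax5* (0.0106 CPM per kb). *Cd79a* and *Cd79b* did not differ beyond their spread, and neither did *Ms4a1* and *Cd22*. By its mean, *Blk* also followed *Cd79a* and *Cd79b* in the libraries labelled *Bmal1ΔcDC* (6.46 ± 2.34 CPM per kb), within the spread of *Cd79a* there (15.04 ± 8.86 CPM per kb), and in the sham libraries (10.1 ± 5.57 CPM per kb), where its spread took in the means of *Cd79a* (15.2 CPM per kb) and *Cd79b* (13.97 CPM per kb). In engrafted control mice it was at 0.969 ± 0.646 CPM per kb, within the spread of *Ms4a1* (0.964 ± 0.280 CPM per kb) and *Cd22* (0.990 ± 0.521 CPM per kb).

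**Figure D1:**
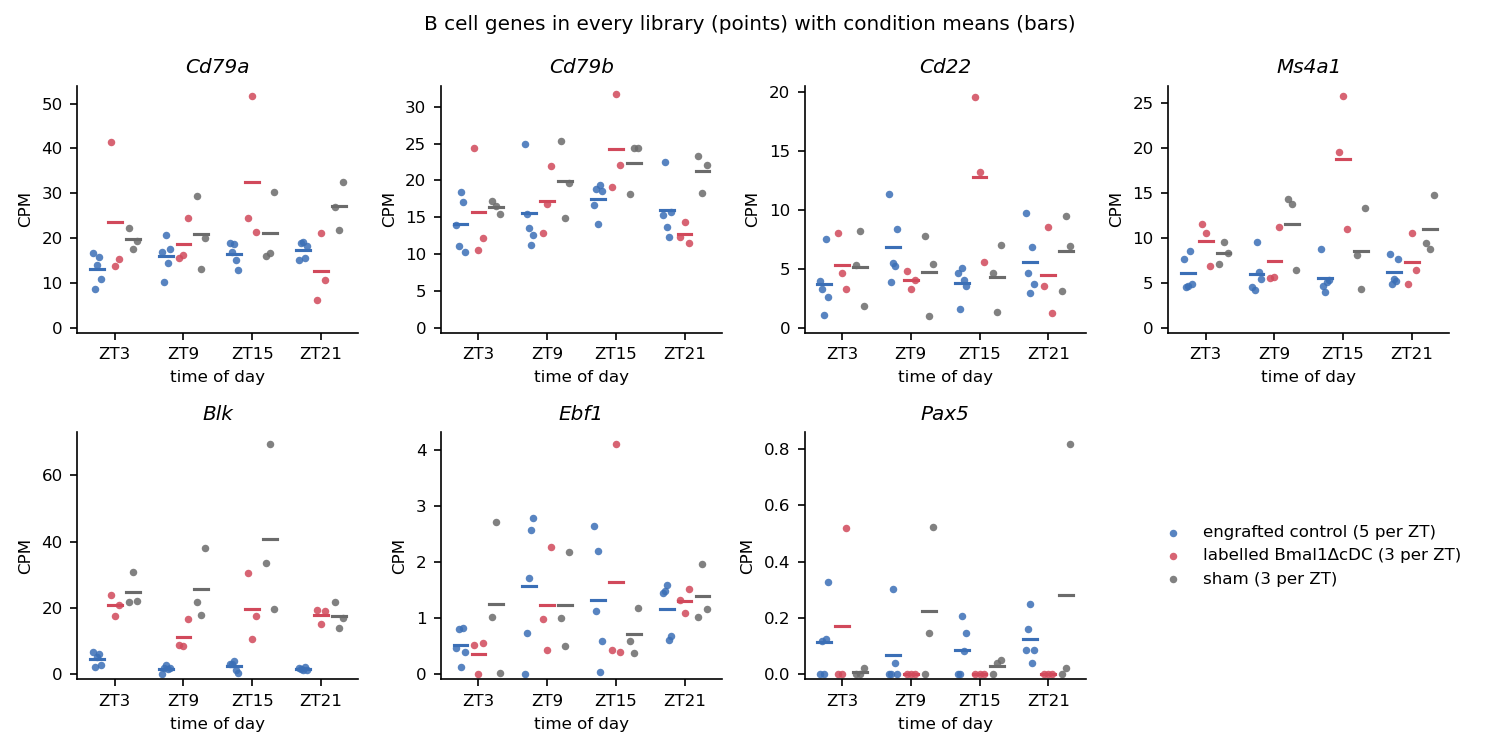
CPM (vertical axes, linear, a scale for each gene) of the 7 B cell genes at ZT3, ZT9, ZT15 and ZT21 (horizontal axes); points are libraries and bars are condition means, with colours for engrafted control mice (5 per timepoint), libraries labelled *Bmal1ΔcDC* (3 per timepoint) and sham-injected mice (3 per timepoint). *Blk* lies between 0 and 6.74 CPM in all 20 engrafted control libraries and at 8.53 CPM or more in the other 24, whereas the groups overlap for the other genes.

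*Cd79a* and *Cd79b* encode the signalling chains of the B cell receptor. *Cd79a* (chromosome 7, 24897381 to 24902197, plus strand, GRCm38) ranged from 8.65 to 20.8 CPM with a median of 16.3 in engrafted control mice, from 6.15 to 51.6 CPM with a median of 18.8 in the libraries labelled *Bmal1ΔcDC*, and from 13.1 to 32.6 CPM with a median of 20.9 in sham-injected mice. *Cd79b* (chromosome 11, 106311341 to 106314762, minus strand) ranged from 10.2 to 25.0 CPM with a median of 15.4, from 10.5 to 31.7 CPM with a median of 15.6, and from 14.9 to 25.4 CPM with a median of 19.0 in the same groups. The groups overlapped for both genes, and the widest spread of *Cd79a* was among the libraries labelled *Bmal1ΔcDC*, and 6 of 12 of them, as well as 6 of 12 sham libraries, lay above the highest engrafted control library.

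*Cd22* (chromosome 7, 30865402 to 30880342, minus strand), the inhibitory coreceptor, ranged from 1.11 to 11.4 CPM with a median of 4.36 in engrafted control mice, from 1.31 to 19.6 CPM with a median of 4.72 in the libraries labelled *Bmal1ΔcDC* and from 1.00 to 9.52 CPM with a median of 5.39 in sham-injected mice. *Ms4a1* (chromosome 19, 11249675 to 11266241, minus strand) ranged from 4.04 to 9.58 CPM with a median of 5.25, from 4.83 to 25.8 CPM with a median of 10.6, and from 4.28 to 14.8 CPM with a median of 9.11. For *Cd22* the 3 groups covered much the same range apart from 2 libraries labelled *Bmal1ΔcDC*. For *Ms4a1*, 7 of 12 libraries labelled *Bmal1ΔcDC* and 4 of 12 sham libraries exceeded every engrafted control library.

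*Blk* (chromosome 14, 63372836 to 63417037, minus strand) separated the groups. It ranged from 0 to 6.74 CPM with a median of 2.12 in engrafted control mice, from 8.53 to 30.6 CPM with a median of 17.7 in the libraries labelled *Bmal1ΔcDC*, and from 14.0 to 69.4 CPM with a median of 21.9 in sham-injected mice. The values of the engrafted control mice did not overlap with those of either other group, which overlapped with each other. In 1 control library (ZT9 replicate 1) *Blk* had no read. Over the 44 libraries, 3 reads, the upper limit that a count of 0 allows, correspond to 0.0538 to 0.149 CPM. Such limits cover counting error only.

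The transcription factors had the lowest levels of the members. *Ebf1* (chromosome 11, 44617317 to 45008091, plus strand) ranged from 0 to 2.80 CPM with a median of 0.824 in engrafted control mice, from 0 to 4.11 CPM with a median of 0.774 in the libraries labelled *Bmal1ΔcDC* and from 0.0229 to 2.72 CPM with a median of 1.02 in sham-injected mice. *Pax5* (chromosome 4, 44524757 to 44710487, minus strand) was at 0 in 23 of 44 libraries, 11 of them among the 12 labelled *Bmal1ΔcDC*, and reached at most 0.817 CPM. *Pax5* did not pass the filter on low values (at least 1 CPM in at least 5 libraries) and was not tested, so that 6 of the 7 members entered the tests. Other gene models overlap *Ms4a1*, *Pax5*, *Ebf1* and *Cd22* in GENCODE M21. Reads from both strands cannot be told apart with this library kit, and none of the overlapping models is listed in the table.

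The promoters of *Cd79a* and *Cd22* are shown, of the 4 members with an entry in the RefSeq promoter table (GRCm38.p6), *Cd79a*, *Cd22*, *Ebf1* and *Pax5*, because they encode a signalling chain and a coreceptor of the B cell receptor and were measured well above the transcription factors. Each sequence holds the 250 bases before the start that this table uses, read 5′ to 3′ on the strand of the gene, from chr7:24897247-24897496 (plus strand) for *Cd79a* and chr7:30879029-30879278 (minus strand) for *Cd22*. The *Cd22* window lies wholly within the gene, which starts at 30880342 in both RefSeq and GENCODE M21, so it is not the region before the gene's outermost start. Part of the *Cd79a* window lies within the gene of GENCODE M21, which starts upstream of that of RefSeq. Capitals mark an exact match to the palindrome bound by EBF1, TCCC and GGGA separated by any 2 bases.
Cd79a: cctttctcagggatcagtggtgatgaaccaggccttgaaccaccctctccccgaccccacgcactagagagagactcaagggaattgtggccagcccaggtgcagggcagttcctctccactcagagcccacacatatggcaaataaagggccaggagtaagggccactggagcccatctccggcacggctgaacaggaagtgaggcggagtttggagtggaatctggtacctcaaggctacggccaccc
Cd22: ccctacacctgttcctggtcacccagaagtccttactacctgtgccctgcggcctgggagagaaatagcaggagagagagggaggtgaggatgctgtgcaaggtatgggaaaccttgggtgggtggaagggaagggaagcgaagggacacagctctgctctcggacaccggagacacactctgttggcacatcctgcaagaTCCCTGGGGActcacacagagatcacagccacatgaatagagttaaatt

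The match in the *Cd22* window, TCCCTGGGGA, begins 49 bases before the start used in the table, and the palindrome occurred in 0.779% of 32851 promoter windows of this length. The octamer ATGCAAAT (1.60% of windows) and the E-box CACGTG (6.02% of windows), searched on both strands, were absent from the 4 members' windows. The exact EBF1 palindrome did not occur in the *Cd79a*, *Ebf1* or *Pax5* windows. Only exact matches were sought, so a window without one may still hold an EBF1 site that departs from the palindrome.

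The first question was whether levels of B cell genes in the sorted cells depended on the time of day. None of the 6 members tested passed a test of time in any group. A cosinor of a 24-h period called 0 of 6 in engrafted control mice (limma, adjusted p from 0.668 to 0.943; 0.0251% of all 11963 genes tested were called), 0 of 6 in the libraries labelled *Bmal1ΔcDC* (0% of all genes) and 0 of 6 in sham-injected mice (0% of all genes). No member had an unadjusted p under 0.05 in any group, compared with 9.2%, 10.5% and 7.38% of all genes. A test of any difference among the 4 timepoints, which assumes no shape, called 0 of 6 members in each group, whereas 5.28% of all genes were called in engrafted control mice, 0% in those labelled *Bmal1ΔcDC* and 0% in sham-injected mice. ZT9 against ZT21, at 2-fold or more and an adjusted p under 0.05, called 0 of 6 members in each group (limma; 0.0669%, 0.00836% and 0% of all genes), and 0 members had an unadjusted p under 0.05, compared with 11.5%, 10.9% and 5.32% of all genes.

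An unadjusted p under 0.05 among timepoints was seen for *Blk* in engrafted control mice (1 of 6 members, 23.1% of all genes), for *Ms4a1* in the libraries labelled *Bmal1ΔcDC* (1 of 6 members, 10.3% of all genes) and for 0 of 6 members in sham-injected mice (7.44% of all genes). *Blk* had 6.74, 2.14, 5.20, 6.10 and 2.87 CPM at ZT3, 0, 2.00, 2.85, 1.64 and 2.09 CPM at ZT9, 3.26, 3.08, 3.97, 1.44 and 0.588 CPM at ZT15 and 1.86, 1.57, 1.24, 2.25 and 1.43 CPM at ZT21. The 3 highest values were at ZT3, and the timepoints overlapped (limma adjusted p = 0.194). *Ms4a1* in the libraries labelled *Bmal1ΔcDC* had 11.5, 10.5 and 6.92 CPM at ZT3, 5.57, 5.65 and 11.2 CPM at ZT9, 19.5, 25.8 and 10.9 CPM at ZT15 and 4.83, 10.6 and 6.45 CPM at ZT21. The 2 highest of these 12 values were at ZT15 and the third ZT15 library lay within the range of the other timepoints (limma adjusted p = 0.443).

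*Cd22*, *Cd79a* and *Cd79b* also had their highest mean at ZT15 in the libraries labelled *Bmal1ΔcDC*. *Cd22* had 19.6, 13.2 and 5.61 CPM at ZT15, where the other timepoints spanned 1.31 to 8.56 CPM. *Cd79a* had 24.6, 51.6 and 21.4 CPM at ZT15, against 41.5, 13.9 and 15.4 CPM at ZT3. *Cd79b* had 19.1, 31.7 and 22.1 CPM at ZT15, and 10.5 to 24.4 CPM at the other timepoints. Replicate 2 at ZT15 was the highest library of its group for 4 of the 7 members and replicate 1 for 2 of them. For none of these 3 genes did the difference among timepoints pass the test (limma, adjusted p = 0.535 for *Cd22*, 0.582 for *Cd79a* and 0.549 for *Cd79b*). The mean CPM of *Ebf1* was highest at ZT15 too, with 0.435, 4.11 and 0.408 CPM in replicates 1, 2 and 3 (limma adjusted p = 0.696).

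The second question was whether the libraries labelled *Bmal1ΔcDC* differed from control mice, both with tumour cells. Averaged over the 4 timepoints, *Blk* and *Ms4a1* were higher in the libraries labelled *Bmal1ΔcDC*, and the other 4 members did not pass the test. *Blk* was 6.34-fold higher (log2 difference 2.66, SE 0.24, limma adjusted p = 3.57e-09), with differences of 2.16 to 3.09 at the 4 timepoints. *Ms4a1* was 1.60-fold higher (log2 difference 0.68, SE 0.16, limma adjusted p = 0.00133). The 2 of 6 members called stand against 33.7% of all 11963 genes called in this comparison and 23.5% called higher in the libraries labelled *Bmal1ΔcDC*, so the share of members called was close to that of all genes. The median log2 difference was 0.27 over the 6 members and 0.10 over all genes.

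The difference in *Ms4a1* was greatest at ZT15 (log2 difference 1.63) and was 0.65, 0.28 and 0.17 at ZT3, ZT9 and ZT21. With ZT15 left out, an alternative added after the data were seen, it fell to 0.37 and no longer passed the test (limma adjusted p = 0.133), which left *Blk* as the only member called. With any other timepoint left out both genes remained called, and without ZT21 *Cd79a* was called too (log2 difference 0.59, adjusted p = 0.0280). For the 4 members that were not called, the log2 difference was 0.29 for *Cd79a* (95% interval −0.06 to 0.64), 0.10 for *Cd79b* (−0.17 to 0.37), 0.25 for *Cd22* (−0.25 to 0.76) and −0.05 for *Ebf1* (−0.64 to 0.55).

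**Figure D2:**
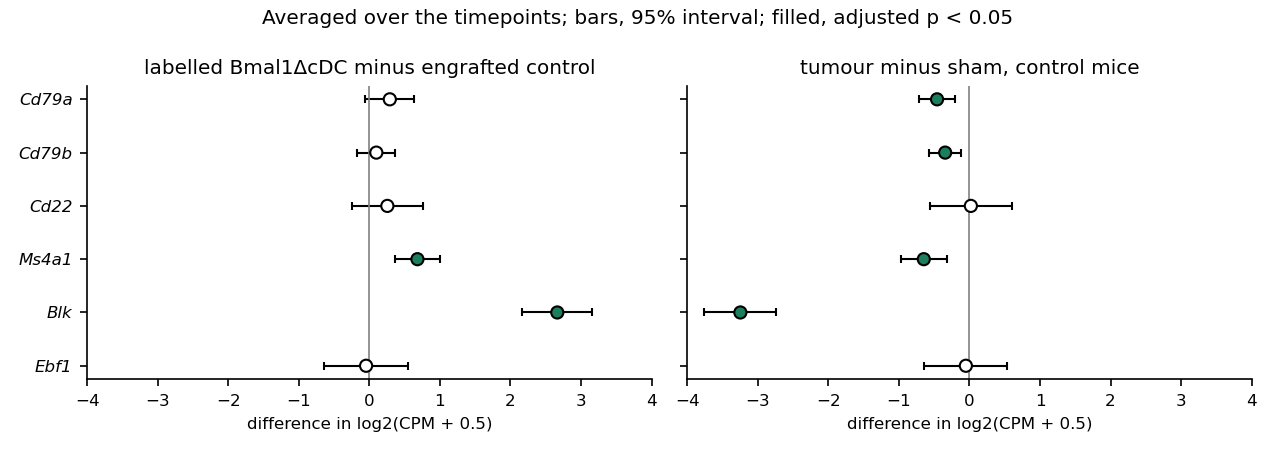
Difference in log2(CPM + 0.5), averaged over the 4 timepoints (horizontal axes), for the 6 members tested (vertical axis), between libraries labelled *Bmal1ΔcDC* and engrafted control mice (left) and between tumour cells and sham in control mice (right); points are estimates, bars are 95% intervals and filled points have a limma adjusted p under 0.05. *Blk* lies farthest from 0 in both panels, at 2.66 and −3.25; both panels use the same engrafted control libraries.

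The third question was whether B cell genes differed between tumour engraftment and sham injection in control mice. *Blk*, *Ms4a1*, *Cd79a* and *Cd79b* were lower with tumour cells than with sham injection at each of the 4 timepoints, whereas *Cd22* and *Ebf1* did not pass the test. *Blk* was 9.49-fold lower (log2 difference −3.25, SE 0.25, limma adjusted p = 6.04e-11), *Ms4a1* 1.57-fold (log2 difference −0.65, SE 0.16, adjusted p = 0.00177), *Cd79a* 1.37-fold (−0.46, SE 0.12, adjusted p = 0.00405) and *Cd79b* 1.27-fold (−0.34, SE 0.11, adjusted p = 0.0159). The 4 of 6 members called compare with 37.9% of all genes called in this comparison and 24.6% called lower with tumour cells. The median log2 difference was −0.40 over the 6 members and −0.04 over all genes. For *Cd22* it was 0.02 (95% interval −0.56 to 0.60) and for *Ebf1* −0.05 (−0.64 to 0.54). The call of *Cd79b* ended under median-of-ratios scaling (limma adjusted p = 0.0508), with the replicate number as a block (log2 difference −0.28, adjusted p = 0.110) and without ZT15 or ZT21 (0.0623 and 0.0700).

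*Blk* set the engrafted control mice apart from both other groups. Its values did not overlap between the libraries labelled *Bmal1ΔcDC* and control mice, which held for 0.903% of all genes (0.435% with the control mice lower), nor between tumour engraftment and sham, which held for 2.15% of all genes (1.73% with the engrafted mice lower). It ranked 65 and 88 of 11963 genes by p in these comparisons, and 10 and 17 genes (0.0836% and 0.142%), *Blk* included, differed at least as far in its direction. Both comparisons share the 20 engrafted control libraries, so the pair of differences is not independent. Leaving out any 1 library kept *Blk* at a log2 difference of 2.54 to 2.75 and of −3.35 to −3.13.

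Depth moved with these groups. The 2 deepest engrafted control libraries, of 28962673 and 27557466 reads, had 3.97 and 2.87 CPM of *Blk*. The 2 shallowest libraries labelled *Bmal1ΔcDC*, of 29406729 and 29806373 reads, had 17.6 and 17.7 CPM, and the 2 shallowest sham libraries, of 28003328 and 30611832 reads, had 21.9 and 16.9 CPM. The part of depth in the differences of *Blk* was not tested. According to the methods, the libraries were pooled over lanes of a flow cell. The study describes the mice as coming from separate experiments. Which library came from which experiment is not given in the sources used here, so the part of the experiment in these differences was not tested.

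**Figure D3:**
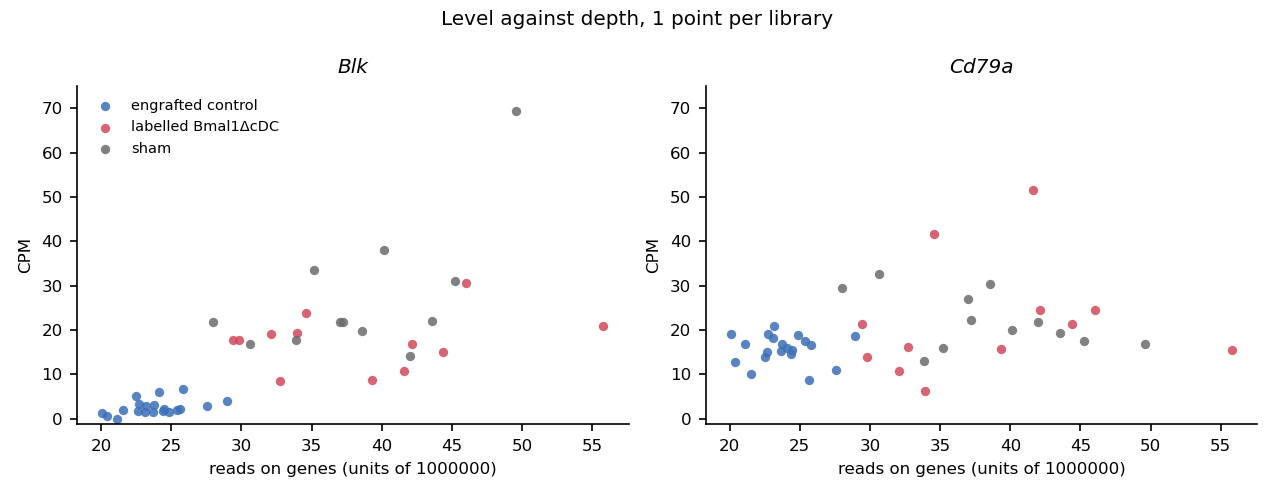
CPM (vertical axes, linear) of *Blk* (left) and *Cd79a* (right) against reads on genes, in units of 1000000 reads (horizontal axes), 1 point per library, coloured by group. Control libraries with tumour cells lie at 28962673 reads or fewer and at 6.74 CPM of *Blk* or lower; *Cd79a* values overlap between the groups.

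Genes of some other cell types differed between the same groups. Of all genes, 23.5% were called higher and 10.2% lower in the libraries labelled *Bmal1ΔcDC*, and 24.6% lower and 13.3% higher with tumour cells than with sham, and the counts of every list are to be read against these shares. All 13 monocyte and macrophage genes were called in both comparisons, higher in the libraries labelled *Bmal1ΔcDC* (median log2 difference 1.03) and lower with tumour cells than with sham (−1.34). Their summed level was 466 to 1191 CPM in engrafted control mice, 947 to 3617 CPM in the libraries labelled *Bmal1ΔcDC* and 1922 to 3448 CPM in sham-injected mice, most of it *Lyz2*. Of 9 NK cell genes, 6 were called higher in the libraries labelled *Bmal1ΔcDC* (median log2 difference of the 9 genes 1.14) and 8 lower with tumour cells than with sham (−1.89), with sums of 30.3 to 83.4 CPM, 51.4 to 187 CPM and 113 to 688 CPM.

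The genes of plasmacytoid DCs were lower with tumour cells than with sham for 8 of 10 genes (median log2 difference −1.87), and in the libraries labelled *Bmal1ΔcDC* 5 of 10 were higher and 1 lower (0.35). Their sum was 199.9 to 295 CPM in engrafted control mice, 169 to 379.7 CPM in the libraries labelled *Bmal1ΔcDC* and 308 to 469.8 CPM in sham-injected mice. The median list sum was 239.9 CPM in engrafted control mice, 243.3 CPM in the libraries labelled *Bmal1ΔcDC* and 382.7 CPM in sham-injected mice. *Siglech*, a plasmacytoid DC receptor, had 2.27 to 11.4 CPM, 9.96 to 42.2 CPM and 32.0 to 68.1 CPM in these groups. It was picked from this list after its values were seen. Of 19 T cell genes, 5 were higher and 2 lower in the libraries labelled *Bmal1ΔcDC*, shares close to those of all genes, and 14 were lower and 2 higher with tumour cells than with sham (median log2 differences 0.19 and −0.49), with sums of 559 to 1106 CPM, 689 to 1570.0 CPM and 824 to 1621 CPM. Over all libraries, neutrophil, stromal and endothelial, erythroid and melanoma genes summed to at most 42.5, 19.5, 35.4 and 14.3 CPM. Of the 12 markers of the sorted DCs themselves, *Ptprc* was higher in the libraries labelled *Bmal1ΔcDC*, and 4 were lower and 2 higher with tumour cells than with sham (median log2 differences 0.12 and −0.02). The part of these cell types in the differences of *Blk* and of the other members was not tested.

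No difference in time course between groups passed the test in any member. No member was called for an interaction of genotype with time (limma; 0.0502% of all genes called) or of treatment with time (0% of all genes called). For the former, 3 of 6 members had an unadjusted p under 0.05, against 18.3% of all genes. These were *Ms4a1* (limma adjusted p = 0.174), *Cd22* (adjusted p = 0.192) and *Cd79a* (adjusted p = 0.220). All 3 were higher in the libraries labelled *Bmal1ΔcDC* at ZT15, by 1.63, 1.54 and 0.86 on the log2 scale, whereas at ZT21 the differences were 0.17, −0.48 and −0.60. For treatment, 0 of 6 members had an unadjusted p under 0.05, against 11.9% of all genes.

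Other B cell genes were grouped by role into 4 lists of 37 genes, all of which were tested. Not all of these genes are limited to B cells, and some were far above the members in level. *Tcf3*, *Blnk* and *Lyn* averaged 179, 95.02 and 88.1 CPM over the 44 libraries, against 19.2 CPM for *Cd79a*, the highest member. From which cells the transcripts of the listed genes came was not tested. Of all genes, 23.5% were called higher in the libraries labelled *Bmal1ΔcDC* and 24.6% lower with tumour cells than with sham. The counts of each B cell list are to be read against these shares, and both comparisons share the engrafted control libraries. Of 8 coreceptor genes, 5 were higher in the libraries labelled *Bmal1ΔcDC* than in engrafted control mice. With tumour cells, 5 were lower and 1 higher than with sham. The median log2 differences were 0.40 and −0.55. *Cd72*, an inhibitory coreceptor, had log2 differences of 0.89 and −0.97, *Fcgr2b*, the inhibitory Fc receptor, of 0.77 and −0.67, *Cd81*, a tetraspanin, of 0.20 and −0.36, *Fcrl1* of 0.61 and −0.61, and *Fcrla* of 0.84 and −1.42. *Siglecg*, a relative of *Cd22*, was higher with tumour cells than with sham (0.43, limma adjusted p = 0.0356) and had 0.01 in the other comparison. *Cd81* and *Fcgr2b* had the highest levels in this list and are both transcribed in many other leukocytes.

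Of 11 genes of receptor signalling, 4 were higher in the libraries labelled *Bmal1ΔcDC* and 7 lower with tumour cells than with sham (medians 0.26 and −0.33). *Pik3ap1*, an adaptor for PI3K, had log2 differences of 0.99 and −1.27, *Stap1* of 0.53 and −0.92, *Prkcb* of 0.51 and −0.33, and *Lyn*, a Src-family kinase like *Blk*, of 0.21 and −0.20, all called in both comparisons. *Bank1* (−0.60), *Cd180* (−1.16) and *Ralgps2* (−0.56) were called for treatment and not for genotype. *Blnk*, the adaptor downstream of the receptor, had the highest mean of this list (95.02 CPM, ahead of *Lyn* with 88.1 CPM) and was not called in either comparison (log2 differences −0.07 and −0.04).

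Of 8 transcription factors, 3 were higher and 1 lower in the libraries labelled *Bmal1ΔcDC*, and 2 were lower and 1 higher with tumour cells than with sham, the latter close to the shares of all genes (median log2 differences 0.036 and −0.12). *Ikzf3*, which encodes Aiolos, had the greatest differences of the 4 lists for genotype and for treatment (1.71 and −2.42), *Pou2f2* had 0.64 and −0.82, and *Pou2af1* was called for genotype only (1.10). *Spib* went the other way, with −0.33 and 0.40. *Tcf3* and *Spib* had the highest means of this list (179 and 69.4 CPM), and *Tcf3* was not called. Of 10 surface and homing genes, 2 were higher in the libraries labelled *Bmal1ΔcDC*, a share near that of all genes, *Ly6d* (1.00) and *Cd37* (0.37), and 6 were lower with tumour cells than with sham, *Ly6d* (−2.03), *Cd37* (−0.70), *Fcmr* (−0.70), *H2-Oa* (−0.60), *H2-Ob* (−0.46) and *Tnfrsf13b* (−0.31). *Cd37* and *H2-Oa* had the highest means of this list (77.9 and 35.9 CPM). *Ly6d* and *Ikzf3* are transcribed in plasmacytoid DCs and in NK or T cells, respectively, as well as in B cells. Of 5 plasma cell genes tested, 4 were higher in the libraries labelled *Bmal1ΔcDC* (23.5% of all genes). With tumour cells, 3 were lower than with sham (24.6% of all genes).

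Variation between mice of the same condition was compared between members. Deviations of log2(CPM + 0.5) from the condition means were compared over the 44 libraries. All genes of 1 library share its sorting, its depth and the constraint of CPM, so the following correlations are descriptions without a test. Over the 15 pairs of members, Pearson's r ranged from −0.16 to 0.59 with a median of 0.28. The highest value was that of *Cd79a* with *Cd79b* (0.59), which was 0.23 within engrafted control mice, 0.82 within the libraries labelled *Bmal1ΔcDC* and 0.81 within sham-injected mice. The 6 pairs of *Cd79a*, *Cd79b*, *Ms4a1* and *Cd22*, a set chosen after the values were seen, had a median r of 0.40 (range 0.17 to 0.59). Within engrafted control mice, the r of *Cd79b* was −0.08 with *Ms4a1* and 0.06 with *Cd22*, and that of *Cd79a* with *Cd22* was 0.17. *Blk* had r of −0.16 to 0.06 with these 4 genes over all libraries, and its values differed between the groups. With *Ms4a1* it had 0.36 within engrafted control mice, 0.06 within the libraries labelled *Bmal1ΔcDC* and −0.79 within sham-injected mice. With *Cd79a* it had 0.40, −0.14 and −0.27, and with *Cd79b* −0.34, 0.00 and 0.24.

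**Figure D4:**
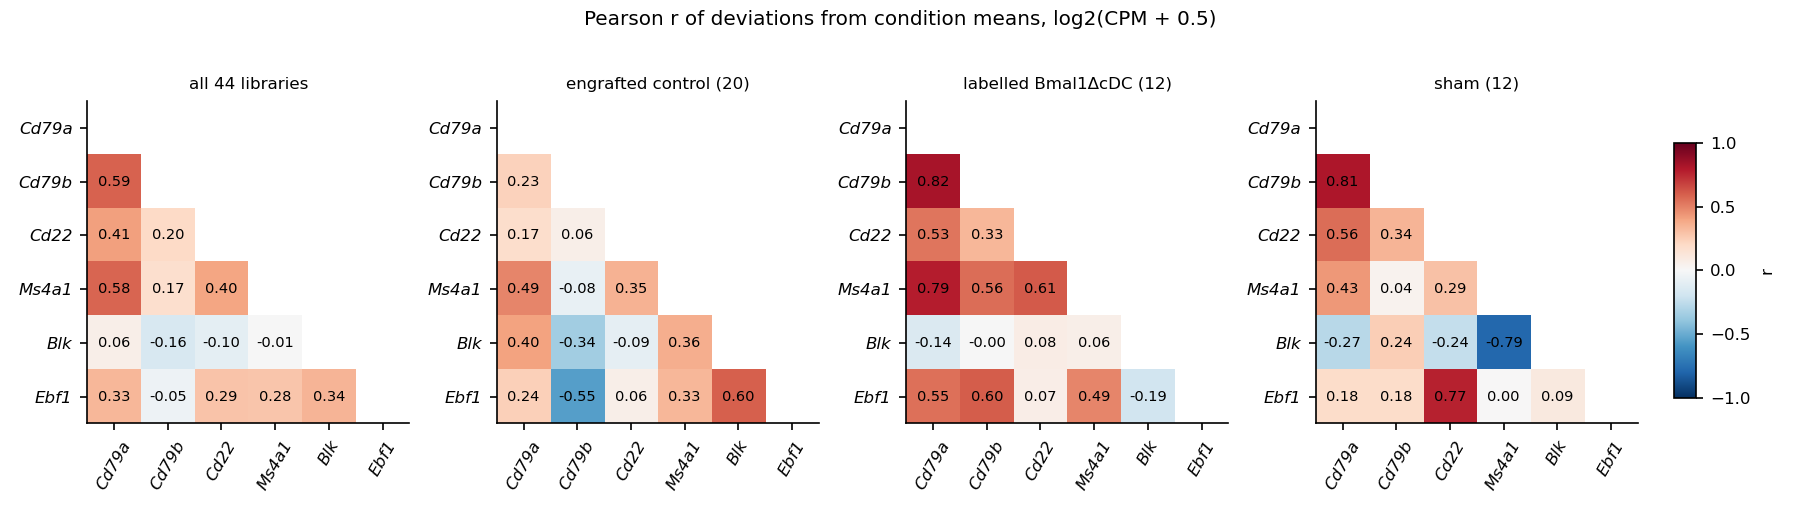
Pearson's r (colour scale from −1 to 1, values printed) of the deviations from condition means of log2(CPM + 0.5) for each pair of the 6 members tested, over all 44 libraries and within each group. *Cd79a* with *Cd79b* reaches 0.82 and 0.81 in the groups of 12 libraries, and 0.23 in engrafted control mice, and the values of *Blk* with *Ms4a1* run from 0.36 in engrafted control mice to −0.79 in sham-injected mice.

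Across the table, the genes whose deviations were most like the mean of the 6 members were *Sdhaf3* (r = 0.64), *Polr1a* (0.62), *Myzap* (0.57), *Adcy7* (0.56) and *Gpm6b* (0.55), of 11049 genes with a median r of 0.05. *Polr1a* had an r of 0.33 within engrafted control mice, 0.80 within the libraries labelled *Bmal1ΔcDC* and 0.73 within sham-injected mice, and *Sdhaf3* had 0.60, 0.65 and 0.67. Among the 30 highest genes, 4 were in the lists of other B cell genes, *Fcmr*, *Blnk*, *Siglecg* and *Fcer2a*. These lists hold 0.317% of all genes compared (35 of 11049). The mean deviation of the coreceptor list had an r of 0.61 with that of the 6 members, the surface and homing list one of 0.59, the signalling list one of 0.45 and the transcription factor list one of 0.33. The r was 0.22 for sorted DC genes, 0.16 for plasmacytoid DC genes, 0.09 for monocyte and macrophage genes, 0.05 for T cell genes and 0.04 for NK cell genes. Plasma cell genes had 0.44, above the transcription factor list. The order of the lists was not the same within the groups. Within engrafted control mice NK cell genes had 0.30 and T cell genes 0.28, and the coreceptor, surface and homing, signalling and transcription factor lists had 0.17, 0.26, 0.22 and 0.10. Within the libraries labelled *Bmal1ΔcDC* these 4 lists had 0.85, 0.79, 0.58 and 0.80 and sorted DC genes 0.46. Within sham-injected mice they had 0.73, 0.66, 0.55 and 0.0084 and sorted DC genes 0.38. Plasma cell genes had 0.24 within engrafted control mice, 0.73 within the libraries labelled *Bmal1ΔcDC* and 0.23 within sham-injected mice.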

How the data were processed

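The authors isolated RNA from sorted cells, made libraries with a kit that does not mark strand, aligned single reads to mm10 with STAR 2.7.0 and counted them on genes with HTSeq 0.9.1 (submitters' processing notes). They deposited 1 table of CPM for 14699 genes, in which every column sums to 1000000. Within a tolerance of 0.02 reads, 87.9% to 89.6% of each library's values are whole reads, as are all values of the 7 members. No count test was run because whole reads were not recovered for all genes. Groups came from the sample labels, and the engraftment and the genotype of the sham mice from the study.

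The 11963 genes that reached 1 CPM in 5 or more libraries were tested on log2(CPM + 0.5) with limma 3.58.1 in R 4.3.3, with Benjamini–Hochberg adjustment over all of them. Genes are called at an adjusted p under 0.05. Fold changes are on that scale, which understates changes of low genes. The rhythm was a 24-h cosinor within each group; group differences are means of the 4 timepoint differences. The models were tested on simulated data. Levels and correlations were computed with Python 3.11.15, numpy 2.4.6 and pandas 2.3.3. P-values measure the spread between mice.

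The members, the gene lists and the tests were chosen with earlier results of these data known. Genes named are the members, the called and the 2 highest genes of the other B cell lists, the 5 genes most like the members, the 2 highest of other cell types where needed, and *Arntl*; *Siglech* and *Fcer2a* were added after their values were seen. 1 gene of the lists is not reported here and was left out of them. Positions are those of GENCODE M21 and promoters those of RefSeq (GRCm38.p6). Alternatives were another pseudocount, scaling, filter, trend, array weights, a replicate block, 1 fit of all libraries and leaving out each library.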

Additional observations from a re-analysis of the deposited data

Results flagged for a closer look

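Of 28 sets of 5 engrafted control libraries, for 7 genes at 4 timepoints, 2 held a library that stood apart from the other 4 by more than the limit of Dixon's test. Chance alone marks about 1 in 20 such sets. *Ms4a1* had 8.77 CPM in replicate 1 at ZT15, where the other 4 libraries had 4.04 to 5.34 CPM. *Pax5* had 0.302 CPM in replicate 3 at ZT9, where the other 4 had 0 to 0.0410 CPM.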

How the results depend on the processing

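In the time and interaction tests no member was called under any alternative. For genotype 2 members were called, 3 with array weights, where *Cd79a* joined (0.38, adjusted p = 0.0434), and 1 among genes with a mean of at least 10 CPM, where *Ms4a1* was not tested; without ZT15, a choice made after seeing the data, as were the other omissions of a timepoint, it was 1. For treatment 4 were called, and 3 or 4 under the alternatives. Leaving out any 1 library gave 2 members for genotype and 4 for treatment. Of the differences of members that were not called, all but that of *Cd79a* for genotype (0.10 to 0.59 over the settings) changed sign in at least 1 alternative. *Ebf1* for genotype ranged from −0.24 to 0.053 with 1 library left out and was 0.034 without ZT3. *Ebf1* for treatment ranged from −0.22 to 0.10 and was 0.056 with array weights, 0.020 with the replicate block and 0.087 without ZT3. *Cd22* for treatment ranged from −0.16 to 0.14 and was −0.019 with array weights, −0.071 with the replicate block and −0.21 without ZT9. Without ZT15, *Cd22* and *Cd79b* for genotype were −0.17 and −0.014. The cause was not tested.

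Replicate numbers share only a number: same-numbered libraries had a median correlation of deviations of 0.00 (range −0.24 to 0.19). With the replicate block, 2 members were called for genotype, and 3 for treatment, without *Cd79b* (−0.28, adjusted p = 0.110). The block changed no other call of a member.

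Counts over all genes moved by more than 1.5 times in all time and interaction tests but ZT9 against ZT21 in sham-injected mice, while no member was called: in engrafted control mice the cosinor called 3 genes (1 to 147 over the alternatives), the timepoint test 632 (278 to 2462) and ZT9 against ZT21 8 (1 to 47), in the libraries labelled *Bmal1ΔcDC* 0 (0 to 63), 0 (0 to 306) and 1 (0 to 44), in sham-injected mice 0 (0 to 1), 0 (0 to 17) and 0 (0 to 0), and the interactions with genotype and treatment 6 (4 to 1071) and 0 (0 to 38).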
